A study of Mus musculus with 10 samples.

Results

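Promoters of protein-coding genes were taken from a chromatin accessibility table of regulatory T cells (Tregs). A peak was counted as a promoter peak when its midpoint lay within 1 kb of an annotated start of a protein-coding transcript on chromosomes 1 to 19. Of 97385 peaks in the table, 16124 (16.6%) met this rule. They lay nearest to 12237 genes, and 16094 of them, at 12222 genes, had enough counts to be tested. The other 30 had at most 22 counts in any library. Among the tested genes, 9208 had 1 promoter peak and 3014 had several.

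Accessibility had been profiled by ATAC-seq, in which the transposase Tn5 inserts adaptors into open DNA, in Tregs sorted as CD4+Foxp3-YFP+TCRb+ cells from mice 10 days of age. In Foxp3CrePik3c3fl/fl mice the recombinase Cre is made from the Foxp3 locus and removes floxed Pik3c3, the gene of the lipid kinase Vps34, in cells that express Foxp3. Control mice were Foxp3CrePik3c3+/+ or Foxp3CrePik3c3+/fl, so they carried the same Cre and YFP reporter, and some of them may have lost 1 copy of Pik3c3. There were 2 control and 4 Vps34-deficient libraries from spleen, and 2 control and 2 Vps34-deficient libraries from lung. The study describes littermate controls and counts its samples as mice, but the labels tie no library to a named animal or litter, so the p-values measure the spread between these libraries, which may be technical.

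A promoter is the stretch of DNA at a transcription start where general factors and RNA polymerase II assemble. Promoters rich in CpG dinucleotides belong mostly to broadly expressed genes and tend to be open in most cell types. CpG-poor promoters are more often those of genes used in 1 cell type or cell state, and they open and close with it. Vps34 makes phosphatidylinositol 3-phosphate on endosomes and autophagosomes, in complexes with Beclin-1 and a p150 subunit. Tregs include resting cells of lymphoid organs and effector cells, which settle in tissues such as the lung and carry receptors such as KLRG1, TIGIT and ST2.

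The promoter sequences that follow belong to peaks named in the results and were read from the GRCm38 assembly, 5′ to 3′ on the strand of the gene, from parts of each peak that overlap no annotated exon. The first pair was less accessible in lung than in spleen, and the capitals mark AGATAA, a short form of the GATA factor motif that was present on either strand in 5.61% of all tested promoter peaks. The upstream stretch of the beta-globin gene Hbb-bs was read from chr7:103828097-103828208 (minus strand) and that of Cst7 from chr2:150570067-150570216 (plus strand).
Hbb-bs: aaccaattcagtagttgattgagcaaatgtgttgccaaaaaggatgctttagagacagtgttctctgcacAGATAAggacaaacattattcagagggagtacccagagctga
Cst7: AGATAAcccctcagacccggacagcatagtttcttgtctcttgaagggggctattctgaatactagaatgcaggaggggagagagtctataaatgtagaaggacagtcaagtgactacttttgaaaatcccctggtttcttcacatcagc

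The next 5 promoters were less accessible in Vps34-deficient Tregs. They were picked for print because they hold the AP-1 letters, which were in 17.8% of the 213 promoters that fell with genotype, so they do not stand for the others. Capitals mark TGANTCA, a form of the AP-1 motif found in 5.33% of all tested promoter peaks, and TGTGGT, the core of the RUNX motif, found in 13.3%, each on either strand within 300 bp centred on the peak. Matches are marked along the whole stretch, and that of Srxn1 102 bp before its start lies outside these 300 bp. In Cdk14, the last base of a RUNX core is the first base of the AP-1 motif. They were read from chr2:152105366-152105515 (plus), chr5:5420313-5420462 (minus), chr16:29544902-29545051 (minus), chr6:122282883-122283032 (minus) and chr14:56262278-56262427 (minus).
Srxn1: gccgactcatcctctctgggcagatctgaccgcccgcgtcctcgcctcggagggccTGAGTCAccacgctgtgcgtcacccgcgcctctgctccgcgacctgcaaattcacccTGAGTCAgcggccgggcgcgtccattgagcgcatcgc
Cdk14: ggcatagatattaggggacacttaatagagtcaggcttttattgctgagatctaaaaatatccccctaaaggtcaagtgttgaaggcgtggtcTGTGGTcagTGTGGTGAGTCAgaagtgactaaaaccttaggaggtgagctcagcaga
Atp13a4: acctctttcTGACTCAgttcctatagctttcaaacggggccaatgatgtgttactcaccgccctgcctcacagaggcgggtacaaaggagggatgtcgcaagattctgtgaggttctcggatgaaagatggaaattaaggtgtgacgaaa
Klrg1: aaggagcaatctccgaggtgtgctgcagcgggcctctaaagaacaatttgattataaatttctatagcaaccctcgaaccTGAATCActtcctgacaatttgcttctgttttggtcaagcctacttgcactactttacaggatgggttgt
Gzmb: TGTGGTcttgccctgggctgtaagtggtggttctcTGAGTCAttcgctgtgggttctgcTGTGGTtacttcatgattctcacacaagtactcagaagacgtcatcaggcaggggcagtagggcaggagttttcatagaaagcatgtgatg

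The last sequence is that of Pdcd10, one of the 3 most accessible promoters, in which no comparison was called. It is CpG-rich. Capitals mark the letters GGGCGG of SP and KLF factors, found on either strand in 59.3% of all tested promoter peaks, which read CCGCCC on the strand of the gene. Neither marked match lies wholly within the window around the peak midpoint used for this share. It was read from chr3:75557008-75557157 (minus).
Pdcd10: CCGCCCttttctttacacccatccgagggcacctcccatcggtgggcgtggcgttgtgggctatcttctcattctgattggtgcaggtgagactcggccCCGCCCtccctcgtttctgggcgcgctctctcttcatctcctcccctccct

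Library totals ranged from 9405823 to 22439699 counts, and the median promoter peak held between 148 and 417 counts in a library. Promoter peaks took 48.6% to 50.8% of the counts in spleen libraries and 45.4% to 47.8% in lung libraries, ranges that do not overlap. Replicates correlated across promoter peaks at r = 0.970 to 0.985 on the log2 scale, where peaks are not independent. No pair agreed within counting noise, as the chi-square per degree of freedom was 1.37 to 2.23 on halved counts. Promoter peaks were wider than the other autosomal peaks (median 652 bp against 306 bp) and more accessible (median 17.5 against 2.73 CPM, counts scaled to a common library total). By base composition, 66.2% were CpG-rich, meaning a GC content of at least 50% and an observed to expected CpG ratio of at least 0.6 over 500 bp.

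The promoter of Pik3c3, the targeted gene, was open in every library. The peak (chr18:30272595-30273114, 520 bp wide, its midpoint in an untranslated exon) had 62.03 and 60.8 CPM in control spleen, 67.3, 65.8, 63.5 and 64.3 in Vps34-deficient spleen, 52.5 and 57.01 in control lung and 55.1 and 61.8 in Vps34-deficient lung. Its genotype log2 fold change was 0.08 ± 0.07 (SE; adjusted p = 0.492), so no difference was called. This peak covers the start of the gene alone, so its value does not check the deletion.

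Between tissues, 744 promoter peaks were more accessible in lung and 417 in spleen. This is 4.62% and 2.59% of those tested, against 18.4% and 6.51% of all 97109 tested peaks. A peak was called here at an adjusted p below 0.05 in edgeR's quasi-likelihood test and an absolute log2 fold change above 0.5, with genotype in the model. The median promoter had a log2 fold change of −0.08. The lung-higher calls had a median level of 2.91 CPM and a median log2 fold change of 1.19, and the spleen-higher calls 5.27 CPM and −0.71. With library size scaling the calls were split evenly (662 lung-higher, 656 spleen-higher), and with TMM factors from promoters alone they were 854 and 276, so that lung-higher calls made up 64.1%, 50.2% or 75.6% of all calls. Without lung control 2 they were 655 and 782, so that lung-higher calls made up 45.6%.

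**Figure D1:**
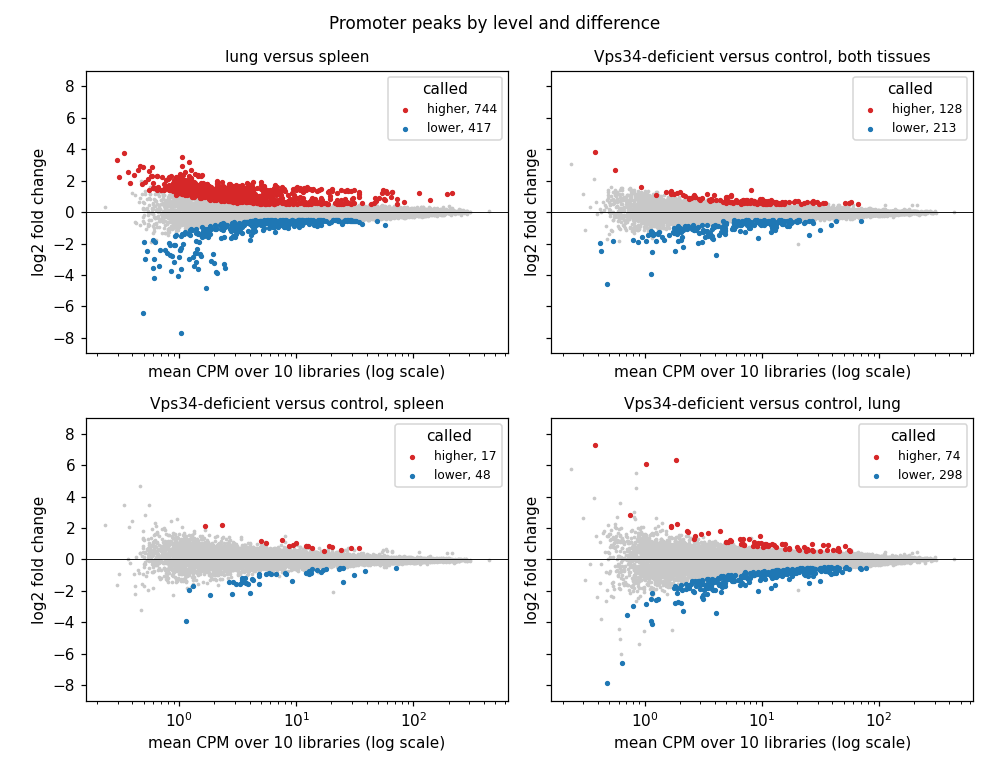
Each panel plots the log2 fold change of 16094 promoter peaks against their mean CPM over 10 libraries (log scale), with called peaks in colour and the others in grey. Calls lie mostly below 10 CPM in the tissue comparison, where 109 of 744 lung-higher calls exceed 10 CPM, and further right for genotype in lung, where 163 of 298 lower calls do.

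Promoters named here and below as leading or by the smallest p-values were taken only from called peaks whose groups do not overlap. Their lack of overlap is therefore set by this choice. Among these, the lung-higher promoters with the smallest p-values were those of Zeb1, Gprc5a, Mbnl1, Gng4 and Mycl. Gprc5a, a retinoic acid-induced orphan receptor (chr6:135065178-135065863, 130 bp before the start), had 57.8 and 56.5 CPM in control spleen, 58.4, 51.9, 55.1 and 58.1 in Vps34-deficient spleen, 91.4 and 90.3 in control lung and 99.8 and 101.2 in Vps34-deficient lung. The log2 fold change was 0.83 ± 0.06 (SE; adjusted p = 3.35e-09). Mbnl1, which encodes a muscleblind splicing factor, was called at 1 of its 5 promoter peaks, 603 bp inside a start (chr3:60501633-60502128), with 25.5 and 22.2 CPM in control spleen, 22.2, 21.8, 25.3 and 25.3 in Vps34-deficient spleen, 46.6 and 43.6 in control lung and 60.8 and 51.9 in Vps34-deficient lung. The log2 fold change was 1.17 ± 0.09 (SE; adjusted p = 3.35e-09). Zeb1, a zinc-finger repressor, had 42.9 to 52.6 CPM in spleen and 83.1 to 99.9 CPM in lung at a peak 496 bp inside the gene (chr18:5593680-5594515; log2 fold change 0.96 ± 0.07 (SE; adjusted p = 3.11e-09)). Gng4, a G protein gamma subunit, rose by 1.43 ± 0.12 (SE; adjusted p = 1.02e-08) on the log2 scale at its start. Mycl, a gene of the Myc family, rose by 1.26 ± 0.11 (SE; adjusted p = 1.16e-08), at a peak of 211 bp.

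The spleen-higher promoters were led by Cst7 and by globin genes. Cst7 encodes cystatin F, an inhibitor of cathepsins in blood cells, and its promoter (chr2:150569816-150570596) had 74.8 and 63.1 CPM in control spleen, 80.8, 70.6, 67.7 and 64.9 in Vps34-deficient spleen, 35.7 and 39.0 in control lung and 32.3 and 43.2 in Vps34-deficient lung. The log2 fold change was -0.84 ± 0.09 (SE; adjusted p = 7.86e-08). Izumo1r, which encodes folate receptor 4, a surface protein of Tregs, had 40.3 to 46.1 CPM in spleen and 21.1 to 28.5 CPM in lung (chr9:14903660-14904379; log2 fold change -0.77 ± 0.09 (SE; adjusted p = 4.45e-07)). The promoters of Hbb-bs and Hbb-bt, the adult beta-globins, were low everywhere. Hbb-bs (chr7:103827812-103828208) had 3.74 and 4.96 CPM in control spleen, 5.15, 2.20, 4.06 and 3.30 in Vps34-deficient spleen, 0.213 and 0.141 in control lung and 0.487 and 0.423 in Vps34-deficient lung, a log2 fold change of -3.56 ± 0.39 (SE; adjusted p = 1.63e-07). For Hbb-bt the range was 2.41 to 4.00 CPM in spleen and 0.213 to 0.423 CPM in lung (log2 fold change -3.22 ± 0.37 (SE; adjusted p = 3.09e-07)). Tnfaip2, a gene induced by tumour necrosis factor, was called at a peak 702 bp before its nearest start, with 2.44 to 5.10 CPM in spleen and 0.141 to 0.425 CPM in lung (log2 fold change -3.85 ± 0.42 (SE; adjusted p = 1.67e-07)).

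Globins are made by erythroid cells and not by T cells, so a list of 27 erythroid genes was added after these values were seen. Of 22 with a promoter peak, 14 were called higher in spleen at their most accessible promoter peak and none in lung (1 further peak was higher in lung), with a median log2 fold change of −2.02. Over the most accessible peak of every gene with one, 1.66% of 12222 were called higher in spleen. They included Slc4a1 (the band 3 anion exchanger, -3.33), Epb42 (protein 4.2, -2.79) and Nfe2 (an erythroid and megakaryocyte transcription factor, -0.58). Tspo2 had 1.15 to 2.89 CPM in spleen and no count in any lung library, which is at least 26.2-fold lower when lung is set at 3 counts over its 4 libraries. With Tspo2 at this bound the median of the list stayed at −2.02. The summed level of the 22 promoters was 169 to 195 CPM in spleen and 113 to 135 CPM in lung. The other 5 genes, Hba-a1, Hba-a2, Klf1, Aqp1 and Car1, had no tested promoter peak. For genotype, 0 of the 22 were called over both tissues and 1, Ank1 with no count in either lung control, in lung alone. The part of erythroid signal in the other spleen-higher calls was not tested.

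Narrow promoter peaks made up a large share of the lung-higher calls. The most frequent width in the table was 210 bp, and 899 tested promoter peaks were at most 5 bp wider than that. Of these, 296 (32.9%) were called higher in lung and 27 (3.00%) in spleen. Among the 15195 wider promoter peaks, 448 (2.95%) and 390 (2.57%) were called. The narrow peaks were also less accessible, with a median of 1.41 CPM against 19.7 CPM for the wider ones. The narrow peaks summed to 2118 and 2368 CPM in the spleen controls and to 2420 to 2855 CPM in spleen Vps34-deficient libraries. In lung they summed to 4148 and 3076 CPM in the controls and to 4395 and 4542 CPM in Vps34-deficient libraries. Of the 744 lung-higher calls, 39.8% were narrow, and the part of peak width in these calls was not tested. Mycl is such a peak, as are Ttc28 (a tetratricopeptide protein), with 7.67 to 17.8 CPM in spleen and 20.6 to 40.2 CPM in lung, and Cit (citron kinase), with 3.21 to 8.76 CPM in spleen and 9.88 to 19.0 CPM in lung.

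Genotype was then compared over both tissues, with tissue in the model. In Vps34-deficient Tregs 128 promoter peaks were more accessible and 213 were less accessible, which is 0.795% and 1.32% of those tested, against 3.52% and 4.06% of all peaks. The median promoter had a log2 fold change of −0.04. The calls were smaller than those between tissues for peaks that rose (median 0.68), and those that fell had a median of −0.86. With TMM factors from promoters alone the calls were 164 and 177, so that 48.1% in place of 37.5% rose.

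Promoters that fell with loss of Vps34 were led by Igsf9b, Sdcbp2, Jag1, Dhrs9 and Ky. Igsf9b, an adhesion protein of the immunoglobulin superfamily (chr9:27298957-27299434, at the start), had 36.9 and 34.7 CPM in control spleen, 11.96, 13.2, 11.6 and 15.9 in Vps34-deficient spleen, 46.5 and 46.7 in control lung and 14.3 and 19.1 in Vps34-deficient lung. The average log2 fold change was -1.47 ± 0.11 (SE; adjusted p = 2.25e-09). Sdcbp2, the PDZ protein syntenin-2 (chr2:151571911-151572689), had 40.5 and 42.3 CPM in control spleen, 20.6, 18.2, 19.0 and 25.1 in Vps34-deficient spleen, 48.7 and 57.6 in control lung and 22.6 and 19.7 in Vps34-deficient lung, with a log2 fold change of -1.15 ± 0.10 (SE; adjusted p = 5.83e-08). Jag1, which encodes a ligand of Notch receptors, changed at its only promoter peak (chr2:137116641-137117716) by a log2 fold change of -0.80 ± 0.08 (SE; adjusted p = 1.45e-07). Its values were 48.8 and 43.7 CPM in control spleen, 27.5, 29.2, 28.6 and 27.3 in Vps34-deficient spleen, 59.8 and 59.3 in control lung and 32.0 and 31.8 in Vps34-deficient lung. Dhrs9, a dehydrogenase of retinol metabolism, had a log2 fold change of -1.63 ± 0.17 (SE; adjusted p = 6.47e-07), from 11.7 to 19.1 CPM in controls to 3.41 to 5.74 CPM. Ky, a muscle protease, fell furthest of these. It had 3.74 and 2.75 CPM in control spleen, 1.25, 0.245, 0.542 and 1.005 in Vps34-deficient spleen, 12.2 and 15.9 in control lung and 1.79 and 0.847 in Vps34-deficient lung, and a log2 fold change of -2.72 ± 0.31 (SE; adjusted p = 1.95e-06).

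**Figure D2:**
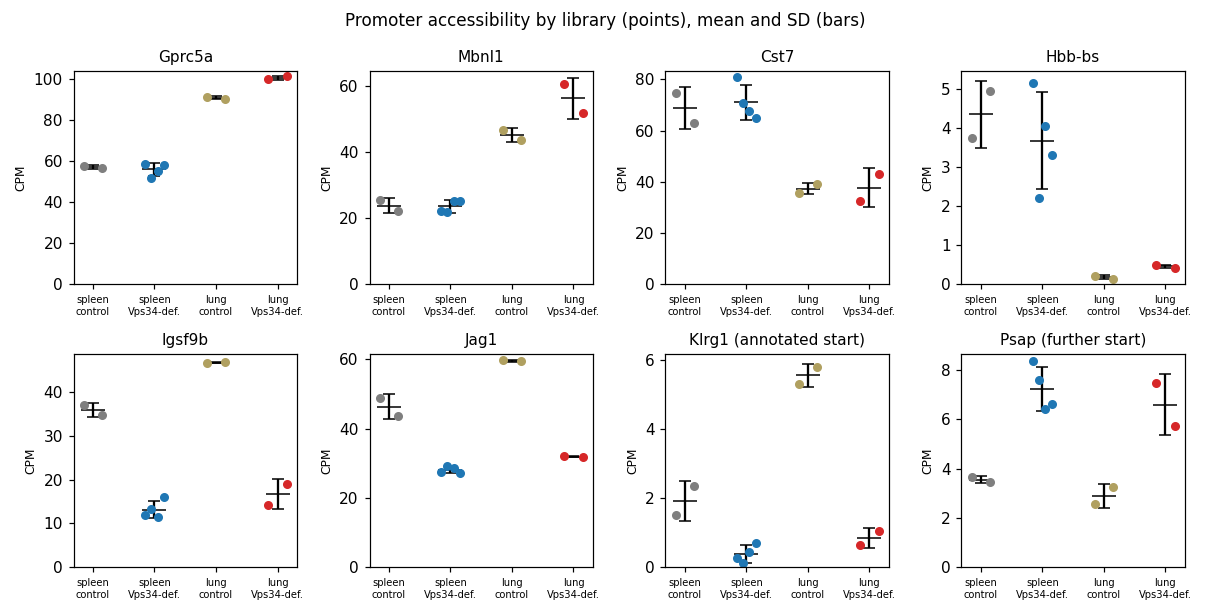
Accessibility in CPM of 8 promoter peaks in each library (points), with the mean and SD of each group as bars, for 2 spleen control, 4 spleen Vps34-deficient, 2 lung control and 2 lung Vps34-deficient libraries. Gprc5a and Mbnl1 were higher in lung, Cst7 and Hbb-bs in spleen, and Igsf9b, Jag1 and the annotated start of Klrg1 were lower, and the further start of Psap higher, in Vps34-deficient libraries of both tissues.

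Promoters that rose with loss of Vps34 were led by Bend5, Psap, Syde2, Gpr146 and Ptger3. Bend5, a BEN domain protein (chr4:111414718-111415552), had 49.6 and 41.3 CPM in control spleen, 63.1, 60.4, 58.9 and 53.5 in Vps34-deficient spleen, 35.1 and 28.8 in control lung and 59.3 and 58.9 in Vps34-deficient lung, with a log2 fold change of 0.58 ± 0.09 (SE; adjusted p = 1.79e-04). Psap encodes prosaposin, the precursor of lysosomal saposins, and had 2 promoter peaks, of which 1 was called. This peak, 541 bp inside a further start (chr10:60284618-60285385), had 3.65 and 3.44 CPM in control spleen, 8.35, 7.58, 6.41 and 6.60 in Vps34-deficient spleen, 2.55 and 3.25 in control lung and 7.47 and 5.71 in Vps34-deficient lung, and rose by 1.07 ± 0.18 (SE; adjusted p = 4.36e-04) on the log2 scale. The other peak, 64 bp inside a start (chr10:60277308-60278076), had a log2 fold change of -0.33 ± 0.10 (SE; adjusted p = 0.0382), below the size called. Ptger3, the prostaglandin E2 receptor EP3, rose by 0.63 ± 0.11 (SE; adjusted p = 6.42e-04) from 9.74 to 15.2 CPM in controls to 16.5 to 23.6 CPM. The orphan receptor gene Gpr146 rose by 0.61 ± 0.11 (SE; adjusted p = 6.42e-04) and Syde2, a gene of a GTPase-activating protein, by 0.59 ± 0.10 (SE; adjusted p = 6.31e-04). Of the 128 rising calls, 52 (40.6%) were narrow, and without narrow peaks 76 were left.

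In spleen alone, 17 promoter peaks rose and 48 fell in Vps34-deficient Tregs, or 0.106% and 0.298% of those tested, against 0.441% and 1.02% of all peaks. Igsf9b, Sdcbp2, Jag1 and Dhrs9 again had the smallest p-values among those that fell (log2 fold changes -1.45, -0.999, -0.72 and -1.39). Atp13a4, a P-type ATPase (chr16:29544785-29545166), followed with 3.12 and 1.65 CPM in control spleen, 0.278, 0.122, 0.180 and 0 in Vps34-deficient spleen, 3.62 and 2.12 in control lung and 0.162 and 0.212 in Vps34-deficient lung, a log2 fold change of -3.94 ± 0.58 (SE; adjusted p = 3.76e-04) in spleen. Of the 17 that rose, 9 were narrow. Among the rest, Mbnl2, a muscleblind splicing factor, had 8.96 and 8.82 CPM in control spleen, 14.6, 18.4, 15.2 and 16.5 in Vps34-deficient spleen, 9.78 and 7.06 in control lung and 11.2 and 10.8 in Vps34-deficient lung (chr14:120307008-120307762), a log2 fold change of 0.87 ± 0.18 (SE; adjusted p = 0.0110) in spleen. Trappc11, Ttc28, Cit and Dcaf4, all narrow, rose by 1.24, 0.80, 1.07 and 2.13. With the spleen libraries fitted alone, 50 rose and 99 fell. The number that rose went from 0 to 39 as single libraries were left out, and the number that fell from 13 to 83.

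In lung, 74 promoter peaks rose and 298 fell, or 0.460% and 1.85%, against 1.22% and 3.74% of all peaks. Srxn1, sulfiredoxin, which restores oxidised peroxiredoxins (chr2:152105273-152105928), had 22.5 and 26.9 CPM in control lung, 7.63 and 6.35 in Vps34-deficient lung, 14.5 and 12.5 in control spleen and 8.21, 8.32, 6.32 and 6.89 in Vps34-deficient spleen. Its log2 fold change was -1.84 ± 0.22 (SE; adjusted p = 1.82e-05) in lung and -0.87 ± 0.18 (SE; adjusted p = 0.00971) in spleen. Cdk14, a cyclin-dependent kinase (chr5:5419908-5420538), had 23.8 and 25.4 CPM in control lung, 8.77 and 7.20 in Vps34-deficient lung, 16.3 and 14.5 in control spleen and 9.32, 8.32, 7.76 and 9.19 in Vps34-deficient spleen, with -1.64 ± 0.20 (SE; adjusted p = 2.47e-05) in lung. The promoters that rose with the smallest p-values were those of Bend5, Gabrr2, a GABA receptor subunit, Syde2, Trak1, a kinesin adaptor of mitochondria, and Acvr1c, an activin receptor. Gabrr2 had 15.9 and 15.7 CPM in control lung, 34.8 and 29.6 in Vps34-deficient lung, 24.7 and 23.1 in control spleen and 32.5, 30.2, 33.5 and 26.3 in Vps34-deficient spleen, a log2 fold change of 1.004 ± 0.15 (SE; adjusted p = 2.63e-04) in lung. Trak1 rose by 0.89 and Acvr1c by 0.73. With TMM factors from promoters alone 99 rose and 205 fell, so that 32.6% in place of 19.9% of the calls were higher. With the lung libraries fitted alone, 9 rose and 80 fell. Without lung control replicate 2, 41 rose and 53 fell, and without lung control replicate 1, 299 rose and 366 fell.

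The genotype comparisons of the 2 tissues share no library, so their calls were set side by side. The mice may still be shared, since spleen and lung libraries of the same genotype and number were both high or both low over chromosome Y peaks in each of the 4 pairs. These were 56.9 and 67.6 CPM in the control libraries numbered 1, 7.03 and 12.8 CPM in those numbered 2, 9.88 and 21.4 CPM in the Vps34-deficient libraries numbered 1, and 64.8 and 63.4 CPM in those numbered 2. Whether the tissues share mice was not tested, so their calls cannot be taken as independent. Of the 48 promoters that fell in spleen, 38 (79.2%) also fell in lung, and these were 12.8% of the 298 that fell in lung. Of the 17 that rose in spleen 3 (17.6%) rose in lung, 4.05% of the 74 there. All 17 and all 48 spleen calls had the same sign in lung. Of the lung calls, 262 of 298 that fell and 62 of 74 that rose had the same sign in spleen, with a median spleen log2 fold change of −0.25 and 0.28. The difference between the tissues itself was tested by the interaction of genotype and tissue. It called 0 promoters by edgeR's quasi-likelihood test and 0 by DESeq2, 0% of all peaks were called, and 813 promoter peaks had an unadjusted p below 0.05, with a smallest adjusted p of 0.208. No promoter is therefore shown to differ in its genotype effect between spleen and lung.

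**Figure D3:**
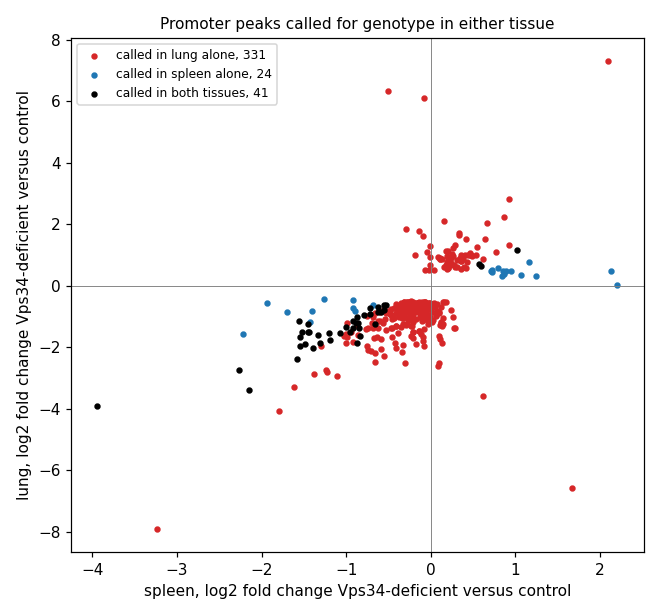
Log2 fold changes of Vps34-deficient against control libraries in lung (vertical) against spleen (horizontal) for the promoter peaks called in either tissue, 1 point per peak. The 41 peaks called in both lie in the lower left and upper right, and 262 of the 298 that fell in lung have the same sign in spleen.

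CpG-poor promoters were called more often than CpG-rich ones in each comparison. Between tissues, 8.47% of the 5433 CpG-poor promoter peaks were higher in lung and 5.74% in spleen, against 2.66% and 0.985% of the 10661 CpG-rich ones. For genotype over both tissues, 1.71% of the CpG-poor peaks rose and 2.83% fell, against 0.328% and 0.553% of the CpG-rich. CpG-poor promoters were also less accessible (median 5.84 against 27.7 CPM), and calls also varied with level. Among 5 classes of equal size by mean CPM, 14.5% of the lowest and 0.528% of the highest were called higher in lung. In the middle class, from 11.4 to 25.6 CPM, 3.88% of the CpG-poor and 0.960% of the CpG-rich peaks were higher in lung, and 2.70% and 0.873% fell with genotype. In the lowest class the shares of lung-higher calls were 14.5% of CpG-poor and 14.3% of CpG-rich peaks.

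**Figure D4:**
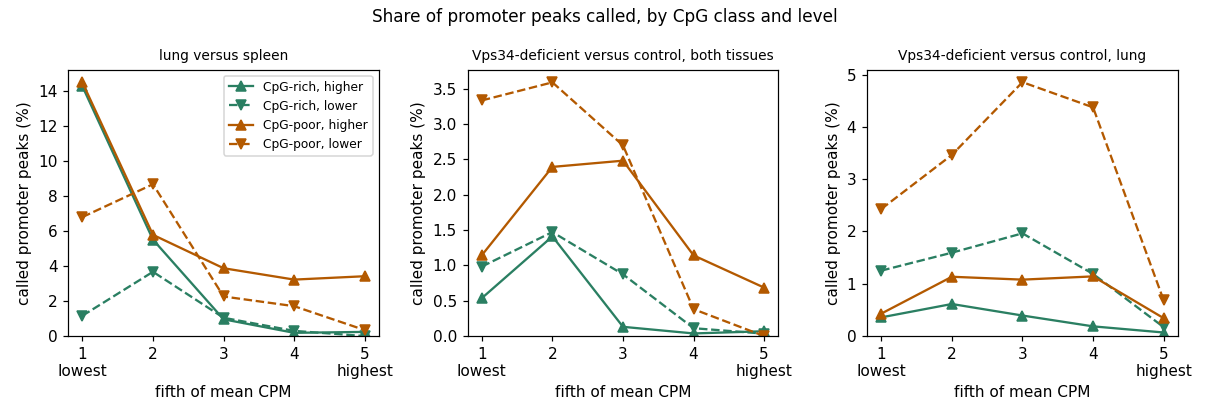
Percent of promoter peaks called higher (upward triangles, solid lines) or lower (downward triangles, dashed lines) in 5 classes of equal size by mean CPM, for CpG-rich and CpG-poor promoters. The vertical scale differs between panels, and between tissues the lung-higher share falls from 14.5% and 14.3% in the lowest class to 3.42% of CpG-poor and 0.239% of CpG-rich promoters in the highest.

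Calls also differed with the distance to a start and with shared starts. Of 11442 peaks with the midpoint within 250 bp of a start, 3.42% were higher in lung and 1.07% fell with genotype. Of 2666 peaks more than 500 bp away, 8.96% were higher in lung and 2.251% fell with genotype. The far peaks were also less accessible (median 5.26 against 24.3 CPM) and less often CpG-rich (26.7% against 76.5%). The part of distance itself in these calls was not tested. Among 1294 peaks with starts on both strands, 11 were higher in lung, 11 in spleen, 3 rose and 5 fell with genotype (0.850%, 0.850%, 0.232% and 0.386%). These peaks were mostly CpG-rich (84.8%). At the 1 kb limit itself, Tnfrsf4 (OX40) was the last peak before a start to be counted, with 3.88 to 6.35 CPM over all libraries, and Muc2 the last behind one, with 0.144 to 1.91 CPM. Just beyond it, Zdhhc14 had 45.3 to 61.9 CPM and Tpra1 5.74 to 11.3 CPM.

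Where a gene with several promoter peaks had a call, it was mostly at 1 of them. Of 3014 such genes, 303 had a peak called higher in lung, 27 of these had 2 or more, and in 17 every promoter peak was called. For promoters that fell with genotype over both tissues the numbers were 114, 10 and 5. Atg7, which encodes the enzyme that activates ATG12 and the ATG8 proteins in autophagy, was 1 of the 10. Its peak 80 bp before a start, in an intron (chr6:114657830-114658137), had 4.99 and 5.24 CPM in control spleen, 2.64, 1.10, 1.44 and 1.87 in Vps34-deficient spleen, 6.59 and 10.2 in control lung and 1.95 and 2.54 in Vps34-deficient lung, a log2 fold change of -1.71 ± 0.23 (SE; adjusted p = 2.79e-05). Its other peak, 997 bp before a start, changed by -0.69 ± 0.14 (SE; adjusted p = 0.00277).

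Promoters were compared with the other peaks nearest to the same gene. Among 9670 genes with both kinds, 1689 had another peak that fell in lung with genotype, and in 76 of these (4.50%) a promoter peak fell too. Conversely, 32.3% of the 235 genes with a promoter that fell had another such peak. Over all 9670 genes the shares were 2.43% with a promoter peak that fell and 17.5% with another peak that fell. Between tissues, 4881 genes had another peak higher in lung and 8.50% of them a promoter as well, while 69.5% of the 597 genes with a lung-higher promoter had another such peak. Over all 9670 genes these shares were 6.17% and 50.5%.

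Promoters of gene lists were then read from the most accessible promoter peak of each gene. In the list of 45 effector Treg genes with a promoter peak, 5 were called higher in lung (Klrg1, Tigit, Tnfrsf9, Havcr2 and S100a4) and 1 higher in spleen (Lag3), with a median log2 fold change of 0.00 against −0.08 over all promoters. With genotype over both tissues 5 fell (Klrg1, Il1rl1, Pparg, Gzmb and S100a4) and none rose, with a median of −0.14 against −0.04. Over the most accessible peaks of all 12222 genes with a promoter peak, 4.16% were called higher in lung and 1.66% in spleen, and 1.06% fell with genotype. In bulk libraries, fewer effector cells and less accessibility per cell cannot be told apart. Klrg1, an inhibitory receptor of terminally differentiated lymphocytes, was called at both of its promoter peaks. At the annotated start (chr6:122282594-122283092) it had 1.51 and 2.34 CPM in control spleen, 0.278, 0.122, 0.451 and 0.718 in Vps34-deficient spleen, 5.32 and 5.79 in control lung and 0.650 and 1.06 in Vps34-deficient lung, a log2 fold change of -2.48 ± 0.35 (SE; adjusted p = 4.23e-05) for genotype and 1.43 ± 0.36 (SE; adjusted p = 0.00354) for lung against spleen. The peak 819 bp upstream changed by -1.11 ± 0.24 (SE; adjusted p = 0.00517). Gzmb, the protease granzyme B (chr14:56262106-56262558), had 5.88 and 5.51 CPM in control spleen, 2.37, 2.69, 3.61 and 3.02 in Vps34-deficient spleen, 7.44 and 11.2 in control lung and 3.74 and 2.96 in Vps34-deficient lung, with -1.18 ± 0.20 (SE; adjusted p = 3.55e-04). Il1rl1, the gene of the IL-33 receptor ST2, had 2.94 and 3.03 CPM in control spleen, 2.64, 2.08, 2.26 and 2.73 in Vps34-deficient spleen, 3.62 and 9.60 in control lung and 1.14 and 1.27 in Vps34-deficient lung, so that the lung controls lay far apart.

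Of the other effector promoters, Tigit and Tnfrsf9 were called between tissues, Pparg for genotype and S100a4 in both. The coinhibitory receptor gene Tigit had 48.3 and 56.3 CPM in control spleen, 39.2, 37.1, 35.02 and 40.8 in Vps34-deficient spleen, 80.5 and 93.6 in control lung and 61.4 and 72.6 in Vps34-deficient lung at the peak by its start (chr16:43663949-43664666). Its lung against spleen log2 fold change was 0.84 ± 0.08 (SE; adjusted p = 2.14e-08), and that for genotype, -0.44 ± 0.08 (SE; adjusted p = 7.44e-04), was below the size called. At the smaller peak 909 bp upstream, genotype gave -1.01 ± 0.16 (SE; adjusted p = 1.75e-04). Pparg, the nuclear receptor of tissue Tregs, changed by -0.86 ± 0.17 (SE; adjusted p = 0.00149) with genotype, from 7.16 to 10.3 CPM in controls to 3.52 to 6.14 CPM. S100a4, a calcium-binding protein, changed by -1.24 ± 0.24 (SE; adjusted p = 0.00183) and Tnfrsf9, the receptor 4-1BB, by 0.52 ± 0.09 (SE; adjusted p = 8.02e-05) between tissues. The Tnfrsf9 call was lost in 11 of 19 alternative fits.

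Promoters of the Treg lineage and of the resting state gave few calls. None of 18 lineage genes was called at its most accessible promoter peak in any of the 4 comparisons, while among their further peaks 1 rose and 1 fell with genotype in lung. Foxp3 itself lies on chromosome X, outside the rule. Among the resting Treg genes, Foxp1 fell with genotype in lung (-0.51), a call lost in 14 of 20 alternative fits. Satb1, a chromatin organiser, was not called at its most accessible promoter, and a further peak (chr17:51826449-51826881) rose with genotype by 0.68 ± 0.14 (SE; adjusted p = 0.00370), from 7.06 to 13.9 CPM in controls to 13.1 to 21.4 CPM. Of 15 T cell defining genes 1 was called, Cd6, lower in lung (-0.51).

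Among signalling lists, Fosl2 and Atf3, genes of AP-1 and ATF factors, were higher in lung (0.80 ± 0.10 (SE; adjusted p = 6.99e-07) and 0.64 ± 0.10 (SE; adjusted p = 4.05e-05)), and none of the 22 genes of the AP-1 and receptor-induced list was called for genotype at any promoter peak. Fosl2 had 41.1 and 49.3 CPM in control spleen, 39.8, 50.5, 48.6 and 41.5 in Vps34-deficient spleen, 71.5 and 98.6 in control lung and 71.1 and 65.8 in Vps34-deficient lung. Traf1, an adaptor of TNF receptors, was the 1 of 20 NF-kB pathway genes higher in lung (0.82). Nfkb2 and Tnip1 fell with genotype in lung (-0.53 and -0.52), calls that were lost in 12 and 11 of 20 alternative fits. Over the most accessible peaks of all 12222 genes, 1.61% fell in lung. Of 25 interferon response genes, Mx1, an antiviral GTPase, was called in opposite directions. It was lower in lung (-0.59 ± 0.16 (SE; adjusted p = 0.00555)) and rose with genotype (0.66 ± 0.15 (SE; adjusted p = 0.00782)), with 12.6 and 10.3 CPM in control spleen, 19.2, 16.5, 13.5 and 14.2 in Vps34-deficient spleen, 6.80 and 5.01 in control lung and 10.7 and 12.9 in Vps34-deficient lung. Isg15 was lower in lung (-0.53) and was not called for genotype. Of the most accessible peaks of all 12222 genes, 0.704% rose with genotype over both tissues.

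The lists closest to the kinase gave few calls. None of the 8 genes of the Vps34 complexes was called at any promoter peak in any of the 4 comparisons, and their median log2 fold change for genotype was −0.10. Of 29 autophagy genes, Atg7 fell over both tissues and Atg4c, a protease that processes ATG8 proteins, was called in lung, where it rose by 0.68 ± 0.19 (SE; adjusted p = 0.0411), a call lost in 8 of 20 alternative fits. Its log2 fold change was 0.28 ± 0.16 (SE; adjusted p = 0.448) in spleen and 0.43 ± 0.13 (SE; adjusted p = 0.0326) over both tissues, neither of them called. Of the most accessible peaks of all 12222 genes, 0.409% rose in lung. Of 24 lysosome genes Ctsh, cathepsin H, was called most widely. It had 4.46 and 2.75 CPM in control spleen, 1.39, 0.979, 0.812 and 2.15 in Vps34-deficient spleen, 9.99 and 9.46 in control lung and 2.44 and 2.96 in Vps34-deficient lung, a genotype log2 fold change of -1.66 ± 0.25 (SE; adjusted p = 7.91e-05) and a tissue log2 fold change of 1.30 ± 0.25 (SE; adjusted p = 2.83e-04). None of 27 proliferation genes, 27 proteasome genes or 25 sterol and fatty acid synthesis genes was called at its most accessible promoter peak in any of the 4 comparisons. Among further peaks, 1 of the proteasome genes was higher in lung and 1 of the sterol and fatty acid synthesis genes fell with genotype over both tissues. Of 53 ribosomal protein genes 1 was called (Rpl9, -0.52 between tissues).

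Markers of other cells had tested promoter peaks in part. For B cells, 7 of 12 markers had a tested promoter peak, none was called at its most accessible one (1 further peak was higher in lung), their sums were 56.3 to 71.8 CPM over all libraries, and the defining genes Cd79a and Ms4a1 had none. For myeloid cells 6 of 13 had one, and Lyz2, Csf1r and Adgre1 had none. Their sum was 72.5 to 91.1 CPM in controls and 56.6 to 65.6 CPM in Vps34-deficient libraries, and Cebpa, a myeloid transcription factor, fell with genotype (-0.60 ± 0.14 (SE; adjusted p = 0.00706)), as did Mpo, which had 0 to 3.03 CPM. Mpo, the gene of myeloperoxidase, was also called higher in lung (1.72 ± 0.53 (SE; adjusted p = 0.0146)). The part of myeloid signal in the other genotype calls was not tested. For lung epithelium, 6 of 14 had a peak, Sftpc and Sftpb had none, Nkx2-1 was called higher in lung, and the sum was 32.5 to 39.6 CPM in spleen and 29.6 to 37.2 CPM in lung. Of the 9 endothelial and fibroblast markers with a peak, Cdh5 was higher in lung at 1.13 to 3.39 CPM, and their sums were 69.0 to 79.4 CPM in spleen and 64.1 to 77.1 CPM in lung. Klrd1 was the 1 of 7 CD8 and NK cell markers called, higher in lung (1.32), and the list summed to 44.5 to 60.3 CPM in spleen and 45.2 to 56.3 CPM in lung. Of the 8 markers of other helper T cells, Ifng fell with genotype (-1.97 ± 0.28 (SE; adjusted p = 5.51e-05)), with 4.37 and 7.30 CPM in control spleen, 1.11, 1.22, 0.722 and 2.01 in Vps34-deficient spleen, 4.46 and 4.38 in control lung and 2.11 and 0.847 in Vps34-deficient lung. Tbx21 and Il5 were higher in lung (1.02 and 1.23), and this list summed to 51.2 to 67.0 CPM over all libraries.

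**Figure D5:**
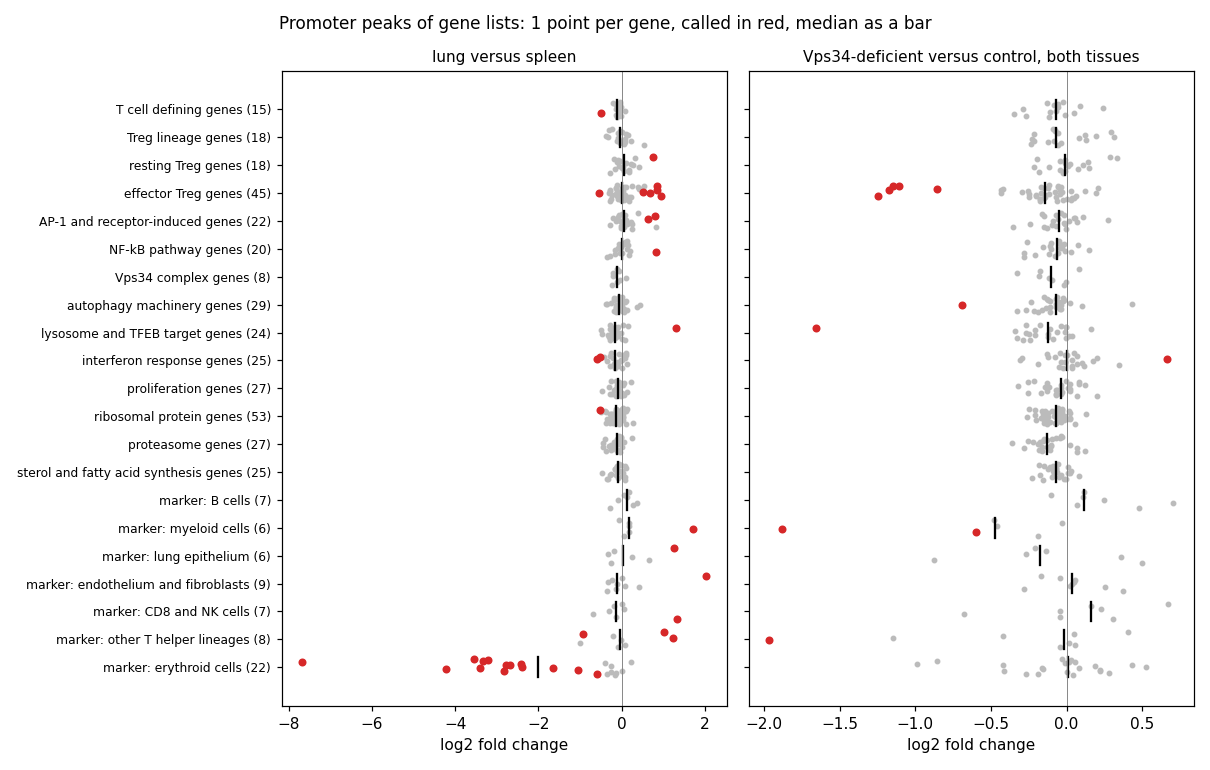
Log2 fold change of the most accessible promoter peak of each gene in 21 lists (number of genes in brackets), between tissues on the left and between genotypes on the right, with called peaks in red and the median of each list as a bar. Erythroid markers lie to the left between tissues with a median of −2.02, and effector Treg genes hold 5 of the called genes to the left for genotype. Fitted values beyond −7 belong to Tspo2, which has no count in lung.

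Motif letters were counted in 300 bp centred on each promoter peak, on both strands, for 18 motifs. TGANTCA (AP-1) was present in 5.33% of all tested promoter peaks, in 17.8% of the 213 that fell with genotype over both tissues and in 6.25% of the 128 that rose. It was in 27.1% of the 48 spleen and 16.4% of the 298 lung calls that fell, in 23.5% of the 17 that rose in spleen, and in 10.5% of the lung-higher and 6.71% of the spleen-higher tissue calls. Since motifs differ with base composition, the shares were also read among CpG-poor promoters, where they were 10.2% of all and 22.1% of those that fell with genotype, 8.60% of those that rose, 15.2% of the lung-higher and 8.33% of the spleen-higher. The RUNX core was in 23.0% of CpG-poor promoters and in 42.9% of the 154 CpG-poor ones that fell over both tissues. It was in 26.5% of the CpG-poor ones that fell in spleen and 29.6% of those that fell in lung. The GATA letters were in 12.1% of CpG-poor promoters and 21.2% of the 312 CpG-poor ones higher in spleen. They were also in 14.8% of the CpG-poor ones higher in lung, 16.2% of those that fell and 15.1% of those that rose with genotype over both tissues, and 16.5% and 18.2% of those that fell and rose in lung, but in 5.88% of the 34 that fell in spleen. CCGGAAG (ETS) was in 13.1% of all promoters, 2.82% of the lung-higher and 4.22% of those that fell with genotype, and among CpG-poor promoters in 6.04%, 1.74% and 3.90%. Of the promoters that fell in lung it was in 11.1%, and in 6.82% of the CpG-poor ones. The remaining motifs are given by their share of all promoters, and for 4 of them some shares among called CpG-poor promoters, chosen after they were seen, are added. NF-Y (CCAAT) was found in 28.7%. The insulator factor CTCF (AGGGGGC) was found in 14.5% of them, in 10.6% of the CpG-poor ones and in 3.98% of those CpG-poor ones that fell in lung, and KLF factors (GGGTGTG) in 8.65%. An E-box bound by MYC and related factors (CACGTG) was present in 8.27%. The TATA box (TATAAA) was present in 4.69%, in 9.18% of the CpG-poor ones, and in 13.7% of the CpG-poor ones higher in lung and 15.1% of those that rose with genotype. The letters of the respiratory gene regulator NRF1 (GCGCATG) were in 4.55%, and those of the zinc-finger factor YY1 (AAGATGGC) were in 3.67%. For the Wnt pathway factors TCF and LEF (CTTTGAA) the share was 3.22%, and for the cyclic AMP response element (TGACGTCA) it was 2.11%. The orphan receptors of the NR4A family (AAAGGTCA) had 0.783%. The ISRE, STAT5 and NF-kB motifs, which hold unspecified bases, were in 6.13%, 5.41% and 1.12%. STAT5 was in 8.39% of CpG-poor promoters and in 18.3% of the 93 CpG-poor ones that rose with genotype over both tissues. NF-kB was in 1.84% of CpG-poor promoters and in 4.55% of the 176 CpG-poor ones that fell in lung, which were 8 promoters. It was in 0.649% of the CpG-poor ones that fell over both tissues and in 0% of those that fell in spleen. The SP/KLF letters were in 59.3% of all promoters and in 30.9% to 43.2% of the tissue and genotype calls other than the 17 that rose in spleen.

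In the sequences printed above, Srxn1 has TGAGTCA at 102 and 45 bp before the start, Cdk14 at 43 bp, Gzmb at 132 bp and Klrg1 TGAATCA at 70 bp, counted to the first base of the match. Atp13a4 has TGACTCA at 178 bp. The erythroid promoter Hbb-bs holds AGATAA at 210 bp and Cst7 at 348 bp before the start. Pdcd10 has CCGCCC at 301 and 202 bp before the start.

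The 3 most accessible promoters were called in no comparison. Sp4, which encodes a factor of the SP family, had 411 to 461 CPM over the 10 libraries, Pdcd10 286 to 329 CPM and Lnpep, an aminopeptidase, 263 to 324 CPM. Their absolute log2 fold changes were at most 0.10 between tissues and 0.05 for genotype over both tissues.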

How the data were processed

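The deposited table gives, for each of 97385 merged peaks and 10 libraries, a raw read count made by the authors with bedtools. Upstream, the sources used here name adaptor trimming, BWA, Picard 1.65, a Tn5 shift, nucleosome-free reads and MACS2 2.1.0.20150603 peaks called per library and kept when found in enough replicates, then merged. The study's text names mm9 and the submitters' processing notes mm10 (GRCm38). Every peak end lies within the GRCm38 chromosomes, so GRCm38 and GENCODE M21 were used. Both mates of a pair appear to be counted, since 91.5% to 96.5% of counts were even, and halved counts were tried. The study's methods give the numbers of spleen libraries the other way round, and the labels were followed. The series' design text describes the spleen gate without TCRb.

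Counts were fitted over all 97109 peaks that passed filterByExpr in edgeR 4.0.16 (R 4.3.3) with TMM factors and the quasi-likelihood test, and p-values were adjusted over all of them by Benjamini-Hochberg. The comparison of tissues and that of genotype over both tissues came from a model with both terms, and those within a tissue and the interaction from a model with 1 mean per group. Printed CPM values are counts scaled to the library total, without TMM factors. The common biological coefficient of variation was 17.8%. On simulated counts with 200 peaks changed 2-fold among about as many peaks as here, 82.5% of the changed peaks were recovered between tissues, 86.0% for genotype over both tissues, 70.5% in spleen and 65.0% in lung. For peaks changed 1.5-fold the shares in the same order were 48.0%, 48.5%, 23.5% and 14.5%, so many changes near the size called would be missed. Alternatives were other scalings, no filter, DESeq2 1.42.0, a replicate block, halved counts, a GC offset, a chromosome Y covariate, 1 tissue alone, other promoter definitions and leaving out each library.

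Named promoters were, per comparison and direction, up to 5 called peaks with the smallest p-values whose groups do not overlap, the 3 most accessible, those beside the 1 kb limit, Pik3c3 and called members of 21 gene lists. Further peaks of Klrg1, Tigit, Satb1, Psap and Atg7 and the erythroid list were chosen after their values were seen. The members and lists were chosen with earlier results of these data known. Some genes that the rule names, and 1 promoter sequence, are not reported here.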

Additional observations from a re-analysis of the deposited data

Results flagged for a closer look

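In 6 of 103 sets of 4 spleen Vps34-deficient values, the highest library lay apart from the other 3 by more of the range than Dixon's 95% critical value for 4 samples, where chance gives about 1 in 20. For Trappc11 the gap was 0.865 of the range (replicate 1 at 7.93 CPM, the others at 5.24 to 5.598 CPM). For Lipa it was 0.852 (replicate 1 at 53.4 CPM, the others at 50.1 to 50.6 CPM). For Il5 it was 0.843 (replicate 4 at 1.58 CPM, the others at 0.722 to 0.856 CPM). Ermap, an erythroid surface protein, had a gap of 0.857 (replicate 3 at 1.08 CPM, the others at 0.489 to 0.574 CPM). Hopx, a homeodomain protein, had 0.836 (replicate 4 at 31.4 CPM, the others at 20.3 to 22.1 CPM). The TMM factor had 0.881 (replicate 3 at 1.04, the others at 1.01).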

How the results depend on the processing

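Counts of promoters moved by over 1.5 times in the following cases, and the cause was not tested except where fewer peaks or libraries entered. Between tissues, the lung-higher count was 448 among peaks more than 5 bp wider than the most frequent width, a set chosen after seeing the data. The spleen-higher count was 656 with library size scaling, 276 with TMM factors from promoters alone, 677 with no filter (lung-higher 655, 49.2% of calls) and 277 at gene starts. For genotype over both tissues, the rising count was 77 within 500 bp of a start, 75 at gene starts and 76 among wider peaks. In spleen it was 50 with spleen libraries alone, 5 within 500 bp, 8 at gene starts and 8 among wider peaks, and the falling count was 75 with halved counts and 99 with spleen libraries alone. In lung the rising count was 9 with lung libraries alone and 48 at gene starts, and the falling count was 80 with lung libraries alone. Every scaling moved the median of all promoters by less than 0.1 (log2).

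Leaving out 1 library gave 611 to 734 lung-higher and 369 to 782 spleen-higher promoters. For genotype over both tissues 78 to 177 rose and 150 to 249 fell, in spleen 0 to 39 rose and 13 to 83 fell, and in lung 41 to 299 rose and 53 to 366 fell. Spleen-higher calls were 782 without lung control 2 and 665 without spleen Vps34-deficient 1. Rising genotype calls were 85 without lung Vps34-deficient 1 and 78 without lung control 2. Falling spleen calls were 13 and 14 without spleen control 1 or 2, 28 without spleen Vps34-deficient 4 and 83 without either lung control, and rising ones moved with each of the 10 libraries. Rising lung calls were 299 and 41 without lung control 1 or 2. Falling lung calls were 99 and 118 without lung Vps34-deficient 1 or 2, 53 without lung control 2 and 178 without spleen control 2. The interaction called 0 in each of these fits.

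Replicate numbers were not taken to pair the libraries, since the labels tie no number to an animal and deviations of same-numbered libraries correlated at −0.109 to 0.110. Deviations within groups of 2 mirror each other, so this check is weak, and shared mice across tissues are possible. With the replicate number as a block, 0 rose and 9 fell in spleen, and 36 rose and 161 fell in lung. With the lung numbers crossed, 65 rose and 254 fell in lung, and 5 rose and 13 fell in spleen. For 150 values of 90 named peaks there were 2906 alternative values, of which 2652 had the same call and 254 lost it. None of the called values changed sign, and the signs of the uncalled Pik3c3 values were not checked. Calls lost most often were Foxp1, Lipa, Nfkb2 and Tnip1 in lung, Muc2 and Tnfrsf9 between tissues and Ptger3 in spleen.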
